A study of Mus musculus with 24 samples.

Results

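The 60 genes described here belong to the endoplasmic reticulum (ER), the compartment where secreted and membrane proteins are folded and sent on, and were measured in mouse B cells depleted of Spt5. The set was put together by function, with earlier results of these data known. It held 4 stress sensors, 23 chaperones and folding enzymes and 10 genes of ER-associated degradation (ERAD). The rest were 15 genes of protein targeting and the translocon, and 8 genes of COPII vesicles and their cargo receptor. All 60 were found by gene name among the 14106 genes of the count table, and 59 of them had enough counts to be tested.

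The libraries were made from poly(A) RNA of splenic B lymphocytes cultured with interleukin 4 and lipopolysaccharide. In 3 libraries, called Spt5-depleted, the cells were Supt5hFl/- Rosa26ERT2-cre/+, with 1 floxed and 1 null allele of the Spt5 gene and a Cre recombinase that 4-hydroxytamoxifen switches on. In the 3 libraries called WT the cells were Rosa26ERT2-cre/+ with no altered Spt5 allele. Both groups were activated for 28 h and then received 2 µM 4-hydroxytamoxifen for 32 h, 60 h of activation in all, so the drug and the recombinase were shared and the null allele was not. By some labels these B cells are mature and by others immature. Nothing states that replicates were separate mice, and the p-values reflect the spread between libraries alone, which may be technical. Spt5 belongs to DSIF, a complex that travels with RNA polymerase II, and the comparison asks how mRNA levels differ once its gene has been deleted.

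The Spt5-depleted libraries held 17306549, 20216180 and 21441575 counts, and the WT libraries 25036970, 23340978 and 25649611. The deleted gene itself, Supt5, was counted 189, 196 and 314 times in Spt5-depleted libraries and 3796, 3512 and 4666 times in WT. Xist RNA stood at 1.00 to 1.73 CPM (counts scaled to library size with TMM factors) in Spt5-depleted libraries and at 468 to 914 CPM in WT, and the Y-linked gene Ddx3y had 2569 counts over the 3 Spt5-depleted libraries and 1 over the 3 WT libraries. Genotype and sex thus cannot be told apart in any result below. The 8 B cell markers, among them Cd79a, Cd79b and Pax5, were present in every library and summed to 4134 to 4788 CPM in Spt5-depleted libraries and to 5016 to 5058 CPM in WT.

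As background, proteins that enter the ER pass through the Sec61 channel, are folded by chaperones such as BiP and by disulfide isomerases, and leave in COPII-coated vesicles, while those that fail to fold are pulled back to the cytosol by ERAD. When unfolded protein builds up, the sensors ATF6, IRE1 and PERK start the unfolded protein response, in which cleaved ATF6 and spliced XBP1 raise the genes for chaperones and ERAD. B cells that turn into antibody-secreting cells enlarge this machinery greatly, because they fold and export immunoglobulin.

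Most of these genes were lower after Spt5 depletion, most often the folding machinery. Of 59 tested members 39 were lower and 7 higher at an adjusted p under 0.05 in edgeR's quasi-likelihood test, against 30.6% lower and 31.8% higher among all 12024 tested genes. That is 66.1% and 11.9% of the members, which were chosen with earlier results of these data known. The members' median log2 fold change was -0.46, beside 0.005 for all tested genes. Changes of at least 2-fold were found for 10 lower members and 0 higher ones, against 7.63% of all genes lower and 9.87% higher by that much. Scaled by library totals alone, which moved the median of all tested genes to 0.16, 33 members were lower and 11 higher, against 2694 lower and 4961 higher among all genes. The 3 Spt5-depleted libraries lay wholly below the 3 WT libraries for 40 members and wholly above them for 8, against 33.3% and 34.2% of all genes. The roles differed among themselves: 21 of 23 chaperones and folding enzymes were lower, 10 of 14 tested targeting and translocon genes, 4 of 10 ERAD genes, 4 of 8 COPII genes and 0 of 4 stress sensors.

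**Figure D1:**
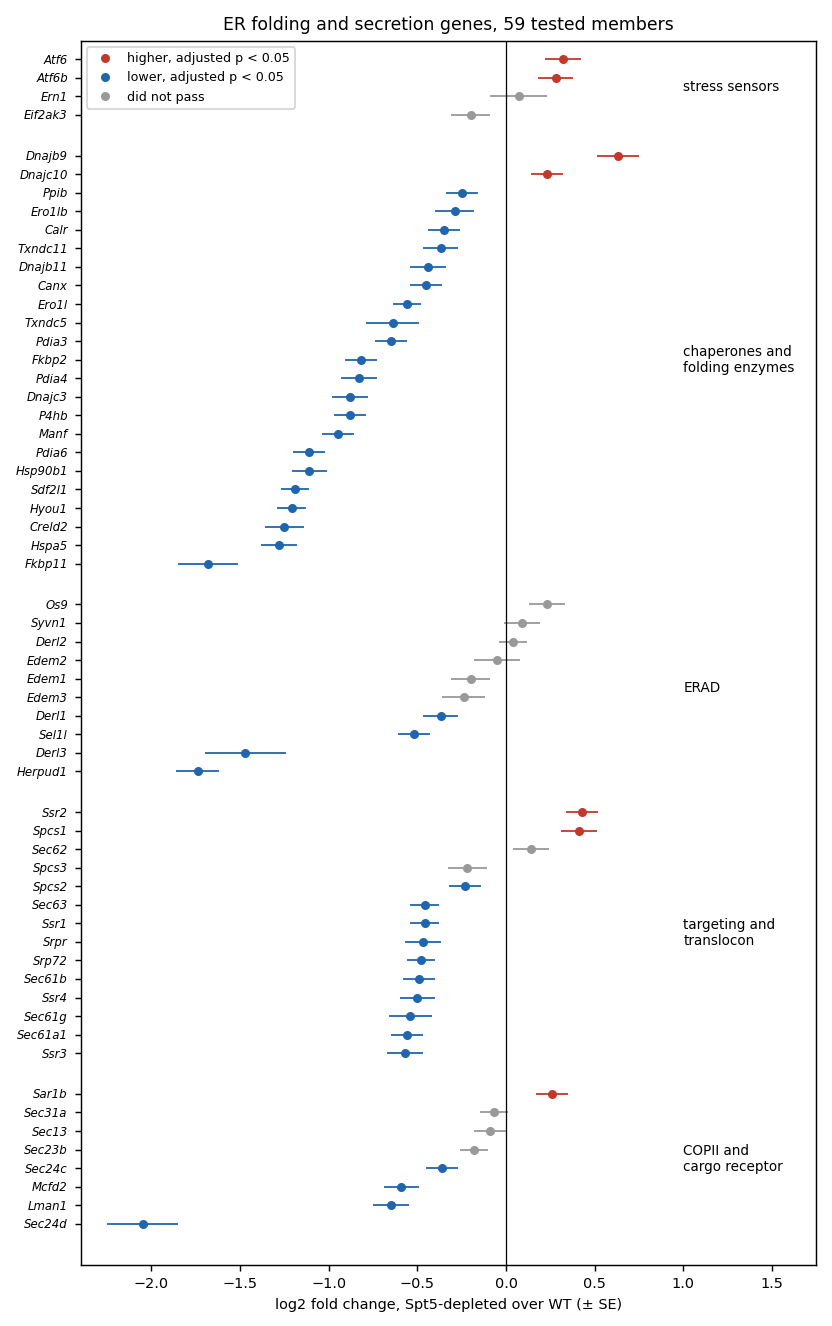
Log2 fold change of each tested member, Spt5-depleted over WT, with its SE from edgeR (x axis) by gene and role (y axis), 3 libraries a group. Chaperones and folding enzymes reach -1.68, translocon genes lie between -0.57 and 0.43, and the 4 stress sensors between -0.20 and 0.32.

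Among all tested genes the abundant ones were more often lower, so the members are set beside genes of like abundance. Among genes with a mean of 300 CPM and over, 16 of 20 tested members were lower and 1 higher, against 50.7% lower and 20.2% higher for all 578 genes of that class. Between 100 and 300 CPM, 16 of 29 members were lower and 6 higher, against 37.1% lower and 27.9% higher for all genes there. In the class from 20 to 100 CPM 6 of 8 members were lower and 0 higher, where 30.8% of all genes were lower and 33.6% higher. Under 20 CPM 1 of 2 members was lower and 0 higher, where 26.1% of all genes were lower and 32.9% higher.

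Many chaperone genes carry a short promoter motif of the stress response, so the matches are shown before the values. The ER stress element (ERSE), which reads CCAAT, 9 free bases and CCACG, is the site known to bind NF-Y together with ATF6 or XBP1. The promoter windows were RefSeq's, build GRCm38.p6, from 250 bases before to 50 after each annotated start, and they were found for 52 of the 60 members. An exact ERSE on either strand was present near 10 tested members, Hspa5, Hsp90b1, Calr, Canx, Pdia6, Ero1lb, Creld2, Dnajc3, Syvn1 and Derl3, and in 0.119% of all 32851 promoter windows. Each match is printed 5′ to 3′ in the direction of the motif, with the fixed letters of the motif in capitals and the 9 free bases in lower case.
Hspa5: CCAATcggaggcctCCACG
Hsp90b1, the site farther from the start: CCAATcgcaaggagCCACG
Hsp90b1, the site nearer the start: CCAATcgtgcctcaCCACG
Calr: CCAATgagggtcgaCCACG
Canx: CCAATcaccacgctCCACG
Pdia6: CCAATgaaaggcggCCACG
Ero1lb: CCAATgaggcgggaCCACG
Creld2: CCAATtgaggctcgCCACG
Dnajc3: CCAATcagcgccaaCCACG
Syvn1: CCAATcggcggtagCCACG
Derl3: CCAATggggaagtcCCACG

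Of these 10 genes 9 were lower, 0 were higher and Syvn1 did not pass, with a median log2 fold change of -1.0. Of the 41 tested members with a window and no exact ERSE 25 were lower and 5 higher, with a median of -0.44. Only 6 genes outside the set had an exact ERSE and were tested, and 3 of them were lower, Alg12 among them, and 1 was higher. These are descriptions of small groups and were not tested. All members with an ERSE other than Syvn1 and Derl3 were chaperones or folding enzymes, a role with a median of -0.82. Members without an ERSE came from every role, so motif and role cannot be told apart in these medians. The related ERSE-II, ATTGG, 1 free base and CCACG, was in 0.0365% of windows and near Herpud1 and Dnajb11, which were both lower, as were 32 of 49 members without it. Of 6 other tested genes with it 3 were lower and 0 higher. The motif TGACGTGG, known as the unfolded protein response element, was in 0.676% of windows and near Sec24d, Txndc5 and Txndc11, which were lower, as were 31 of 48 members without it. Of 99 other tested genes with it 41 were lower and 28 higher. The site known to bind ATF4 with a C/EBP partner was searched as TGATGNAA, which 3.97% of windows held, and was found near Herpud1 and Txndc5, both lower, as were 32 of 49 members without it. Of 265 other tested genes with it 97 were lower and 72 higher. Both strands were searched for each motif, and no 2 matches near a member overlapped. A match is a run of letters and not evidence that a factor binds there, and no binding data were used.

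**Figure D2:**
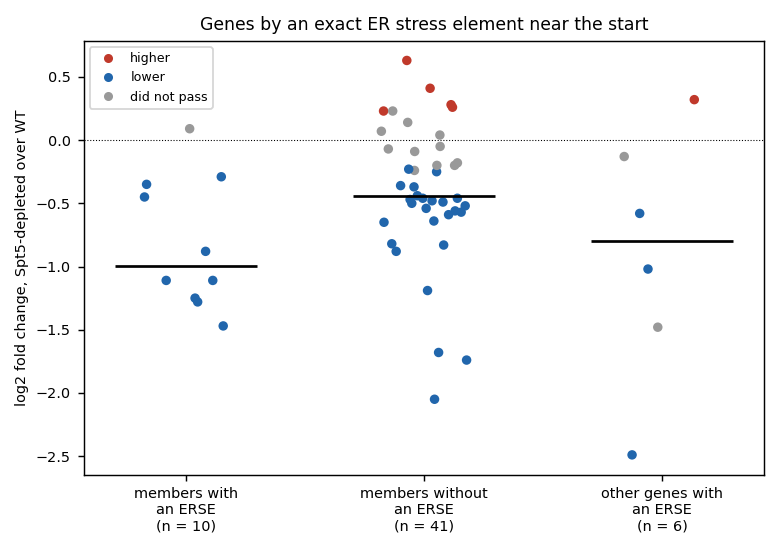
Log2 fold change, Spt5-depleted over WT (y axis), of the 10 members with an exact ERSE, the 41 members without one and the 6 other tested genes with one (x axis), with points coloured by the edgeR call and black lines at the medians. Members with the motif lie between -1.47 and 0.09, with a median of -1.0, and those without it between -2.05 and 0.63, with a median of -0.44.

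The whole 250 bases before the start are given for 5 lower genes that stand for the chaperone and ERAD groups, with the ERSE of the first 4, and the ERSE-II and the ATF4-type site of Herpud1, in capitals. They read in the direction of the gene. The windows are chr2:34771840-34772089 (plus strand) for Hspa5, chr10:86705445-86705694 (minus strand) for Hsp90b1, chr15:88819396-88819645 (plus strand) for Creld2, chr10:75893148-75893397 (plus strand) for Derl3 and chr8:94386179-94386428 (plus strand) for Herpud1, all in GRCm38.p6.
Hspa5: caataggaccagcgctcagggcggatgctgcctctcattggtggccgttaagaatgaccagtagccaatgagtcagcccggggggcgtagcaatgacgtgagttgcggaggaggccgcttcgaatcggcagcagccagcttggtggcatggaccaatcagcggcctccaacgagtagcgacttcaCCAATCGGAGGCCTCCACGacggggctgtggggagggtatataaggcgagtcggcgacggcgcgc
Hsp90b1: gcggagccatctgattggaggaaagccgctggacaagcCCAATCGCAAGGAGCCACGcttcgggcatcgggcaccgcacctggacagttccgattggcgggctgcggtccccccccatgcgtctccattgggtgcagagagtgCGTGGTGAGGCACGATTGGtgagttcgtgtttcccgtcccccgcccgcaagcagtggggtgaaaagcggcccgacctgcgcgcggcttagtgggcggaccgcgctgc
Creld2: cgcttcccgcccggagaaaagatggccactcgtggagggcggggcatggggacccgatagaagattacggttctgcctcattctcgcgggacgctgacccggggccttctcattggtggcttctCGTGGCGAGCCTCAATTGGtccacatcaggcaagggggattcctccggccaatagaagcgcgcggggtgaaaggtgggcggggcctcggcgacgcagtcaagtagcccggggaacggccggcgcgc
Derl3: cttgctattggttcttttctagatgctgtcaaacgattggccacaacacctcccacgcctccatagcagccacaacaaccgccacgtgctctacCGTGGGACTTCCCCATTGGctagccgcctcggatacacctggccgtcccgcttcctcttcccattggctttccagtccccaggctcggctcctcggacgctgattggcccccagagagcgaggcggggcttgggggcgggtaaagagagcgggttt
Herpud1: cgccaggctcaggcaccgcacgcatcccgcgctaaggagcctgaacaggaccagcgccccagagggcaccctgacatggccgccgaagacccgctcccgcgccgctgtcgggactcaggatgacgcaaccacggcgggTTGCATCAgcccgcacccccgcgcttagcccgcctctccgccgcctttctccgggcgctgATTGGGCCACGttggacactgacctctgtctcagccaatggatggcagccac

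Of the 4 stress sensors 2 were higher and 0 lower, where 31.8% of all tested genes were higher and 30.6% lower. Atf6, which encodes the membrane-bound factor that is cut in the Golgi to release its active part, had 264, 261 and 269.7 CPM in Spt5-depleted libraries and 211, 246 and 181 CPM in WT. It was 1.24-fold higher (log2 fold change 0.32 ± 0.10 SE, n = 3 each, edgeR adjusted p = 0.0150), with no overlap between the groups. Atf6b, its paralogue, had 128, 111 and 118 CPM in Spt5-depleted libraries and 88.6, 95.8 and 108 CPM in WT, a log2 fold change of 0.28 ± 0.10 SE (edgeR adjusted p = 0.0174). Both rises were small and each call rested on single libraries. The call for Atf6 was lost without Spt5-depleted replicate 3 or WT replicate 3 (edgeR adjusted p = 0.0539 and 0.0558). The call for Atf6b was lost without Spt5-depleted replicate 1, WT replicate 1 or WT replicate 2 (edgeR adjusted p = 0.0916, 0.0666 and 0.0515).

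Ern1, which encodes the kinase and nuclease IRE1 that splices Xbp1 mRNA, was scarce, with 7.31, 6.88 and 9.26 CPM in Spt5-depleted libraries and 7.24, 8.59 and 6.63 CPM in WT (log2 fold change 0.07 ± 0.16 SE, edgeR adjusted p = 0.723). Its groups overlapped. Eif2ak3, which encodes the eIF2α kinase PERK, had 26.0, 28.3 and 30.2 CPM in Spt5-depleted libraries and 31.2, 37.2 and 28.9 CPM in WT (log2 fold change -0.20 ± 0.11 SE, edgeR adjusted p = 0.128), and overlapped too. It passed as lower without WT replicate 3 (log2 fold change -0.28, edgeR adjusted p = 0.0317).

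Chaperones and folding enzymes had the highest share of lower genes among the roles, 91.3%. The group's median log2 fold change was -0.82, and each of the 23 genes passed, 21 lower and 2 higher. Among all tested genes 30.6% were lower and 31.8% higher. The groups of libraries did not overlap for any of the 23. Such separation was common, with 33.3% of all tested genes wholly lower and 34.2% wholly higher. Hspa5, which encodes BiP, the Hsp70 of the ER, had 954, 1076 and 988 CPM in Spt5-depleted libraries and 2240.3, 2659 and 2418 CPM in WT. Its mean fell to 1006 ± 62.9 CPM in Spt5-depleted cells, against 2439 ± 210.2 CPM in WT (SD, n = 3 each), a 2.42-fold difference (log2 fold change -1.28 ± 0.10 SE, edgeR adjusted p = 4.38e-08).

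Hyou1 and Sdf2l1, partners of BiP, fell with it. Hyou1, which exchanges the nucleotide of BiP, had 82.8, 83.5 and 90.5 CPM in Spt5-depleted libraries and 196, 202 and 194 CPM in WT (log2 fold change -1.21 ± 0.08 SE, edgeR adjusted p = 1.88e-08). Sdf2l1, which works with the BiP cochaperone ERdj3, had 57.8, 58.6 and 55.2 CPM in Spt5-depleted libraries and 133, 133 and 124 CPM in WT (log2 fold change -1.19 ± 0.08 SE, edgeR adjusted p = 2.54e-08). In both genes the highest Spt5-depleted library stayed far below the lowest WT library. Sil1, an exchange factor of BiP outside the set, was higher instead (log2 fold change 0.48 ± 0.10 SE, edgeR adjusted p = 0.000804). Hsp90b1, the Hsp90 of the ER (GRP94), had 1579, 1582 and 1625 CPM in Spt5-depleted libraries and 3228, 3863 and 3274 CPM in WT, a 2.17-fold difference (edgeR adjusted p = 1.78e-07). Creld2 and Manf, stress-induced ER proteins, stood at log2 fold changes of -1.25 and -0.95.

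The J proteins, cochaperones that deliver clients to BiP, went in both directions. Dnajb9 (ERdj4) had 209, 227 and 208 CPM in Spt5-depleted libraries and 135, 169 and 114 CPM in WT, and was 1.54-fold higher (log2 fold change 0.63 ± 0.12 SE, edgeR adjusted p = 0.000600). It was the largest rise among the 59 members. Dnajc10 (ERdj5), which also reduces disulfides, had 272, 298 and 279 CPM in Spt5-depleted libraries and 249.6, 259 and 213 CPM in WT (log2 fold change 0.23 ± 0.09 SE, edgeR adjusted p = 0.0375). The call for Dnajc10 was lost without any 1 of the Spt5-depleted libraries (edgeR adjusted p = 0.0607, 0.163 and 0.0709 without replicates 1, 2 and 3) and without WT replicate 3 (edgeR adjusted p = 0.136). By contrast Dnajc3 (p58IPK) fell, with 194, 199.8 and 187 CPM in Spt5-depleted libraries and 351, 402 and 313 CPM in WT, and Dnajb11 (ERdj3) had a log2 fold change of -0.44 ± 0.10 SE (edgeR adjusted p = 0.00142).

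**Figure D3:**
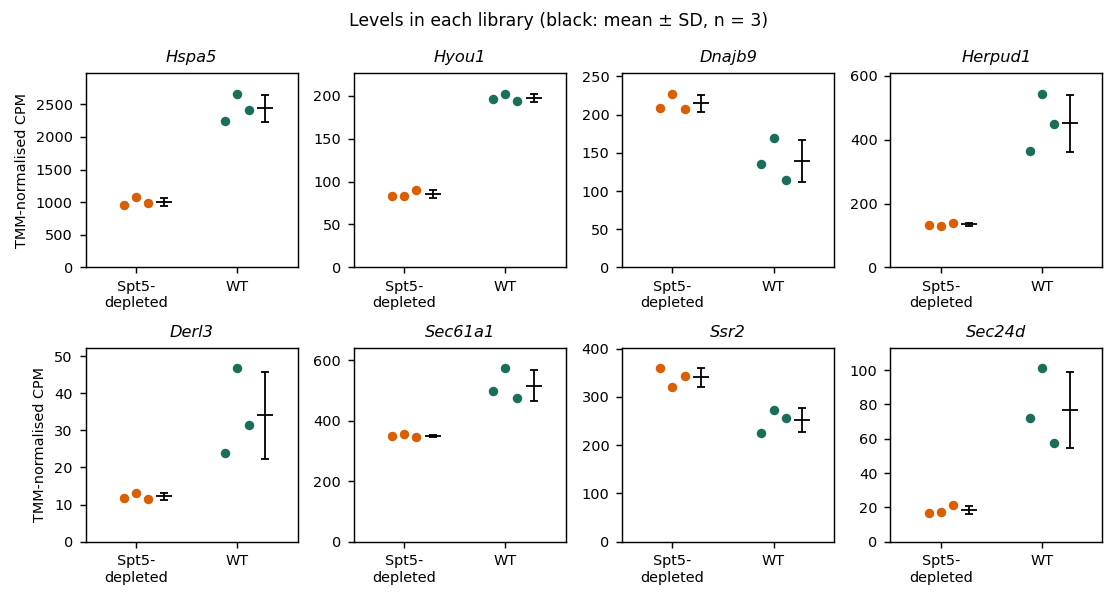
TMM-normalised CPM (y axis, from 0) of 8 members in the 3 Spt5-depleted and the 3 WT libraries (x axis), with black bars for the mean ± SD. Hspa5, Hyou1, Herpud1, Derl3, Sec61a1 and Sec24d lie lower in all Spt5-depleted libraries than in any WT library, and Dnajb9 and Ssr2 lie higher in all of them.

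The disulfide isomerases and oxidases of the set were lower. Pdia6, a protein disulfide isomerase, had 242, 269 and 245 CPM in Spt5-depleted libraries and 504, 572 and 552 CPM in WT (log2 fold change -1.11 ± 0.09 SE, edgeR adjusted p = 7.95e-08). P4hb, the founding disulfide isomerase of the family, Pdia4 and Pdia3, the partner of the lectin chaperones, stood at log2 fold changes of -0.88, -0.83 and -0.65. Of the oxidases that recharge these isomerases, Ero1l had 226, 244 and 220.4 CPM in Spt5-depleted libraries and 348, 345 and 325 CPM in WT (log2 fold change -0.56 ± 0.08 SE, edgeR adjusted p = 3.54e-05). Ero1lb had 194, 205 and 203 CPM in Spt5-depleted libraries and 221, 296 and 217 CPM in WT (log2 fold change -0.29 ± 0.11 SE, edgeR adjusted p = 0.0358). The groups did not overlap for either oxidase. The call for Ero1lb was lost without any 1 of the Spt5-depleted libraries (edgeR adjusted p = 0.110, 0.0786 and 0.0964 without replicates 1, 2 and 3), without WT replicate 2 (log2 fold change -0.13, edgeR adjusted p = 0.218) and when libraries were scaled by their totals alone (edgeR adjusted p = 0.332). The thioredoxin-domain genes Txndc5 and Txndc11 had log2 fold changes of -0.64 and -0.37. Outside the set such genes went both ways. Tmx1 and Tmx3 were higher (log2 fold changes 0.56 and 0.63), Pdia5, at few counts, was lower (-1.19), and Erp44 did not pass.

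The lectin chaperones, which hold glycoproteins while they fold, were lower too. Calr, calreticulin, averaged 2233 ± 105 CPM in Spt5-depleted cells and 2851 ± 65.4 CPM in WT (SD, n = 3 each; log2 fold change -0.35). Canx, calnexin, averaged 1069 ± 54.6 CPM in Spt5-depleted cells and 1457 ± 77.0 CPM in WT (SD, n = 3 each; log2 fold change -0.45). The prolyl isomerases ran from Ppib, cyclophilin B, at -0.25 (edgeR adjusted p = 0.0234) through Fkbp2 at -0.82 to Fkbp11 at -1.68, the largest fall of the folding group. Fkbp11, an isomerase abundant in secretory cells, had 6.19, 5.48 and 6.44 CPM in Spt5-depleted libraries and 14.3, 24.0 and 19.8 CPM in WT. Whether these folds differ from each other was not tested. The Ppib call was lost without Spt5-depleted replicate 2 or 3 or WT replicate 2 (edgeR adjusted p = 0.0827, 0.102 and 0.103), and the calls for Ppib and Txndc11 were lost when libraries were scaled by their totals alone (edgeR adjusted p = 0.352 and 0.0877).

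ERAD was divided. Of 10 genes 4 were lower, 0 higher, and 6 did not pass, with a median log2 fold change of -0.22. The lower share, 40%, was not far from the 30.6% of all tested genes, of which 31.8% were higher. Herpud1, a stress-induced membrane protein of the HRD1 ligase complex, had 134, 131 and 139.7 CPM in Spt5-depleted libraries and 364, 543 and 448 CPM in WT. It was 3.35-fold lower (log2 fold change -1.74 ± 0.12 SE, n = 3 each, edgeR adjusted p = 7.77e-08). Derl3, the derlin found mainly in secretory tissues, had 11.9, 13.2 and 11.5 CPM in Spt5-depleted libraries and 23.8, 46.7 and 31.5 CPM in WT (log2 fold change -1.47 ± 0.23 SE, edgeR adjusted p = 0.000436). The WT libraries of Derl3 were widely spread, and even the lowest of them lay above the highest Spt5-depleted library.

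The other derlins, thought to form part of the channel back to the cytosol, had smaller log2 fold changes. Derl1 had 333, 334 and 321 CPM in Spt5-depleted libraries and 391, 495 and 391 CPM in WT (log2 fold change -0.37 ± 0.10 SE, edgeR adjusted p = 0.00446), a call that was lost with library totals alone (edgeR adjusted p = 0.0688). Derl2 had 160.4, 139.8 and 145 CPM in Spt5-depleted libraries and 148, 140 and 144 CPM in WT (log2 fold change 0.04 ± 0.08 SE, edgeR adjusted p = 0.668). The groups were apart for Derl1 and overlapped for Derl2.

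The core ligase and its adaptor also parted. Sel1l, which stabilises the ligase HRD1 and receives its substrates, had 151, 168 and 154 CPM in Spt5-depleted libraries and 222, 241 and 215 CPM in WT (log2 fold change -0.52 ± 0.09 SE, edgeR adjusted p = 0.000106). Syvn1, which encodes HRD1 itself, had 363, 333 and 376 CPM in Spt5-depleted libraries and 297, 382 and 324 CPM in WT (log2 fold change 0.09 ± 0.10 SE, edgeR adjusted p = 0.423). The Syvn1 groups overlapped.

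The genes that mark misfolded glycoproteins for removal did not pass. Edem1 had 314, 329 and 331 CPM in Spt5-depleted libraries and 339, 449 and 330.4 CPM in WT, with an adjusted p of 0.124 in edgeR. Edem2 had 139, 143 and 131 CPM in Spt5-depleted libraries and 118, 177 and 131 CPM in WT, and Edem3 had 42.8, 43.6 and 49.0 CPM in Spt5-depleted libraries and 56.7, 61.2 and 42.3 CPM in WT. All 3 mannose-trimming genes overlapped between the groups. Without WT replicate 3, Edem1 and Edem3 passed as lower (log2 fold changes -0.29 and -0.39, edgeR adjusted p = 0.0302 and 0.00172). Os9, a lectin that reads the trimmed glycan, had 159, 153 and 160.4 CPM in Spt5-depleted libraries and 114, 149 and 141 CPM in WT, which did not overlap (log2 fold change 0.23 ± 0.10 SE, edgeR adjusted p = 0.0598). It passed as higher with library totals alone (edgeR adjusted p = 0.00354) and without WT replicate 2 or 3 (edgeR adjusted p = 0.0247 and 0.0443), and Syvn1 and Derl2 also passed as higher with library totals alone (edgeR adjusted p = 0.0356 and 0.0469).

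Targeting and translocon genes were mostly lower, by less than 2-fold. Of 14 tested 10 were lower, 2 higher and 2 did not pass, the median log2 fold change was -0.46, and none reached 2-fold. This was 71.4% lower and 14.3% higher, beside 30.6% and 31.8% of all tested genes. Sec61a1, the pore-forming subunit of the Sec61 channel, had 349, 355 and 346 CPM in Spt5-depleted libraries and 499, 574 and 476 CPM in WT (log2 fold change -0.56 ± 0.09 SE, edgeR adjusted p = 7.47e-05). The small subunits Sec61b and Sec61g stood at -0.49 and -0.54. Sec63, which docks BiP at the channel, had 88.5, 88.5 and 91.1 CPM in Spt5-depleted libraries and 121, 123 and 124 CPM in WT (log2 fold change -0.46 ± 0.08 SE, edgeR adjusted p = 0.000161), and its libraries were nearly level within each group. Sec62, its partner in the channel complex, had 106 ± 5.09 CPM in Spt5-depleted cells and 96.1 ± 11.1 CPM in WT (SD, n = 3 each), did not pass, and was called higher with library totals alone (edgeR adjusted p = 0.0133).

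The 4 subunits of TRAP, the translocon-associated complex, did not move together. Ssr3 had 842, 838 and 797 CPM in Spt5-depleted libraries and 1268, 1336 and 1061 CPM in WT (log2 fold change -0.57 ± 0.10 SE, edgeR adjusted p = 0.000139), and Ssr1 and the X-linked Ssr4 stood at -0.46 and -0.50. Ssr2 had 359, 320.1 and 343 CPM in Spt5-depleted libraries and 226, 273 and 257 CPM in WT, and rose (log2 fold change 0.43 ± 0.09 SE, edgeR adjusted p = 0.000815). All 3 Spt5-depleted libraries lay above all WT libraries for Ssr2 and below them for the other TRAP genes.

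The signal peptidase, which cuts the signal sequence off, was mixed as well. Spcs1 had 557, 543 and 459 CPM in Spt5-depleted libraries and 359.5, 439 and 371 CPM in WT (log2 fold change 0.41 ± 0.10 SE, edgeR adjusted p = 0.00255). Spcs2 stood at -0.23 (edgeR adjusted p = 0.0305), and missed the threshold when Spt5-depleted replicate 2 or 3 or WT replicate 2 was left out (edgeR adjusted p = 0.0955, 0.128 and 0.0848) and with library totals alone (edgeR adjusted p = 0.451). Spcs3 did not pass at -0.22 (edgeR adjusted p = 0.0885) and passed without WT replicate 3 (edgeR adjusted p = 0.00236).

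Of the signal recognition particle, which brings ribosomes to the ER, 1 gene of the set could be tested. Srp72 had 352, 365 and 364 CPM in Spt5-depleted libraries and 515, 503 and 491 CPM in WT (log2 fold change -0.48 ± 0.08 SE, edgeR adjusted p = 0.000103), and Srpr, the alpha subunit of the particle's receptor, was lower at -0.47. Srp54a was the 1 member not tested, with 3, 4 and 8 counts in Spt5-depleted libraries and 9, 9 and 8 in WT. Its name carries a tag of its own in the deposited table, which nothing explains. Near-identical copies of it exist, and reads that fit several copies may have been lost or split. The copy Srp54b had 875, 1048 and 1043 counts in Spt5-depleted libraries and 1014, 955 and 1064 in WT.

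COPII genes were mostly small changes around 1 large one. Of 8 genes 4 were lower, 1 higher and 3 did not pass, with a median log2 fold change of -0.27. In so small a group this was 50% lower and 12.5% higher, beside 30.6% and 31.8% of all tested genes. Sec24d, 1 of the Sec24 proteins that select cargo, had 16.7, 17.4 and 21.4 CPM in Spt5-depleted libraries and 71.9, 101 and 57.6 CPM in WT. It was 4.13-fold lower (log2 fold change -2.05 ± 0.20 SE, n = 3 each, edgeR adjusted p = 2.76e-05), the largest change among the 59 tested members. Its relative Sec24c had 141, 140.2 and 146 CPM in Spt5-depleted libraries and 199.9, 171 and 176 CPM in WT (log2 fold change -0.36 ± 0.09 SE, edgeR adjusted p = 0.00219), a call lost with library totals alone (edgeR adjusted p = 0.0603). Both were apart between the groups.

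Lman1 and Mcfd2, the 2 proteins of a cargo receptor for clotting factors and other glycoproteins, both fell. Lman1 had 125, 144 and 129 CPM in Spt5-depleted libraries and 191, 232 and 201 CPM in WT (log2 fold change -0.65 ± 0.10 SE, edgeR adjusted p = 3.45e-05). Mcfd2 had 26.0, 24.0 and 23.3 CPM in Spt5-depleted libraries and 35.2, 39.8 and 35.2 CPM in WT (log2 fold change -0.59 ± 0.10 SE, edgeR adjusted p = 0.000107). The coat genes Sec13, Sec31a and Sec23b did not pass, at -0.09, -0.07 and -0.18, and Sec23b passed with DESeq2's Wald test (adjusted p = 0.0476). Sar1b, the GTPase that starts the coat, had 333, 314 and 289 CPM in Spt5-depleted libraries and 278, 266 and 235 CPM in WT (log2 fold change 0.26 ± 0.09 SE, edgeR adjusted p = 0.0216). Its call was lost without Spt5-depleted replicate 1 or 2 or WT replicate 3 (edgeR adjusted p = 0.112, 0.0754 and 0.0734).

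Ratios of 2 partner genes within a library do not depend on how libraries are scaled, and 8 pairs were compared with an exact two-sided permutation test, in which 3 against 3 libraries cannot go below p = 0.1. The log2 ratio of Sec24d to Sec24c was -3.07, -3.01 and -2.77 in Spt5-depleted libraries and -1.47, -0.77 and -1.61 in WT, a difference of -1.66 (exact permutation p = 0.1, adjusted over the 8 pairs 0.267). The log2 ratio of Sel1l to Syvn1 was -1.27, -0.99 and -1.29 in Spt5-depleted libraries and -0.42, -0.67 and -0.59 in WT, a difference of -0.62. The ratio of Derl1 to Derl2 was 1.05, 1.26 and 1.15 in Spt5-depleted libraries and 1.40, 1.82 and 1.44 in WT, a difference of -0.40. These 3 pairs were the ones whose groups did not overlap, and each reached the smallest p the design allows.

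The other 5 pairs overlapped between the groups. Ero1l to Ero1lb differed by -0.29 and Edem1 to Edem2 by -0.16 (exact permutation p = 0.2 for each). Edem1 to Edem3 differed by 0.04, Atf6 to Atf6b by 0.04 and Lman1 to Mcfd2 by -0.06 (exact permutation p = 0.9, 1 and 0.8).

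**Figure D4:**
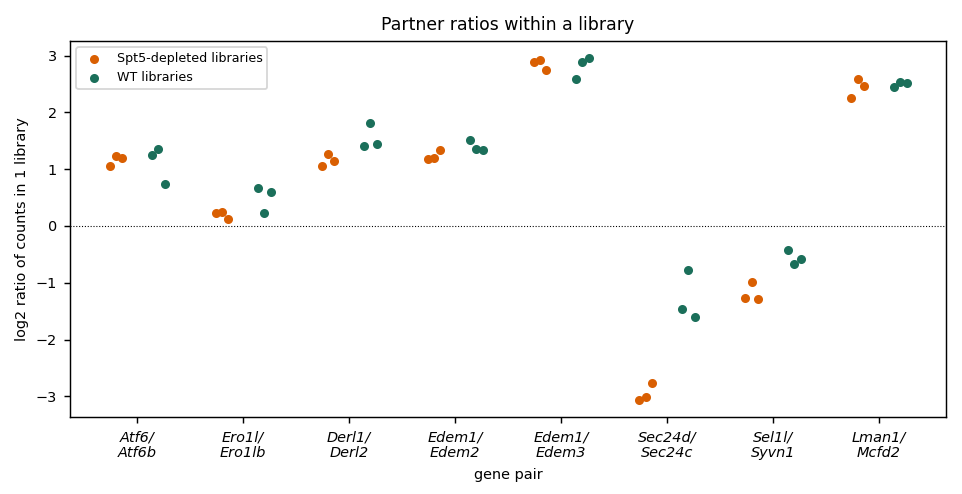
Log2 ratio of the counts of 2 partner genes in the same library (y axis) for 8 pairs (x axis), Spt5-depleted libraries on the left and WT libraries on the right of each pair. The groups are apart for Sec24d to Sec24c, Sel1l to Syvn1 and Derl1 to Derl2.

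The WT libraries were not level for these genes. WT replicate 2 was the highest WT library for 43 of 59 members, 72.9%, against 29.5% of all tested genes. On the log2(CPM + 0.5) scale, relative to the mean of the WT libraries, the median member stood at -0.41, -0.40 and -0.47 in the Spt5-depleted libraries and at -0.05, 0.13 and -0.06 in the WT libraries. Markers of plasma cells, which secrete antibody, also peaked in WT replicate 2: 7 of them, leaving out Fkbp11, summed to 3246, 3021 and 3159 CPM in Spt5-depleted libraries and to 3829, 5235 and 3788 CPM in WT. None was at 0 in any library. Igj, the J chain gene, had 732, 659 and 726 CPM in Spt5-depleted libraries and 599.7, 1239 and 558 CPM in WT. Without WT replicate 2, 36 members were lower and 7 higher, and their median log2 fold change was -0.41.

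**Figure D5:**
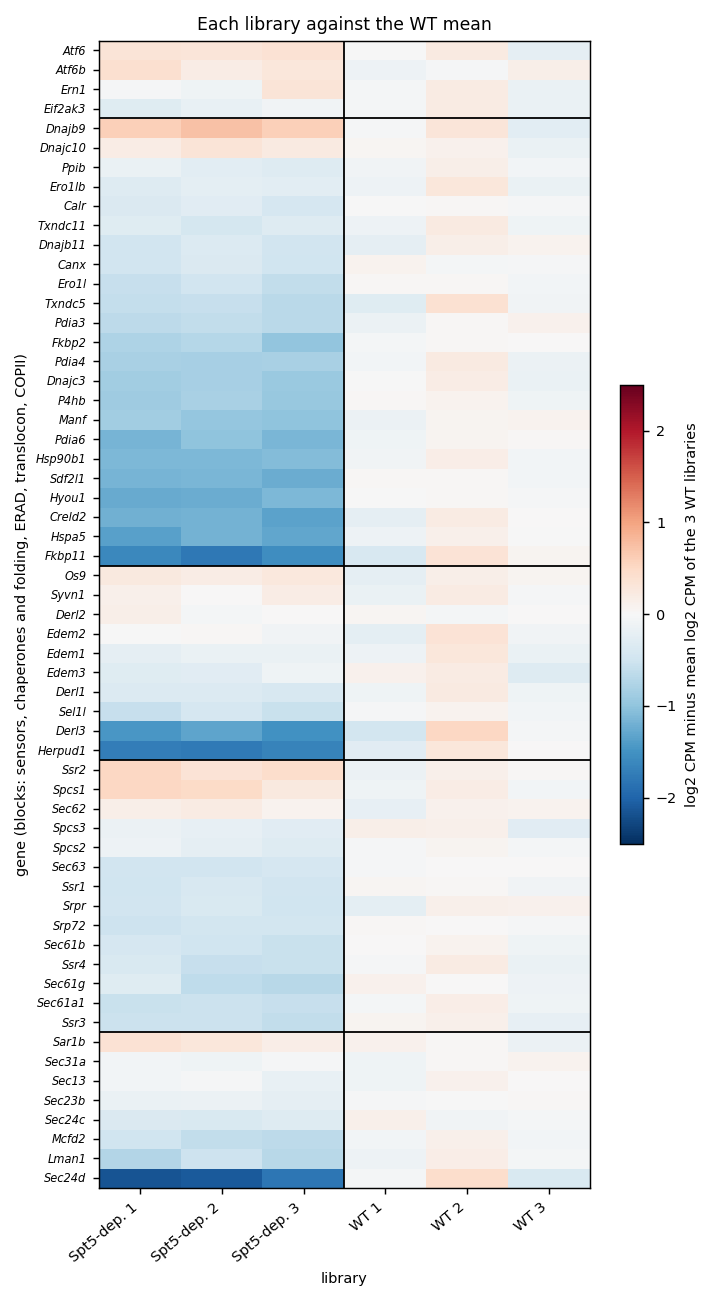
Log2 CPM of each tested member (rows, in blocks by role) in each library (columns), minus the mean of the 3 WT libraries. Blue in the Spt5-depleted columns runs through the chaperone block, and WT replicate 2 is the highest WT library in 43 of 59 rows.

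Of the 7 plasma cell markers 2 were lower and 2 higher, where 30.6% of all tested genes were lower and 31.8% higher. Mzb1, an ER chaperone of B cells, averaged 852 ± 39.3 CPM in Spt5-depleted cells and 1483 ± 187 CPM in WT (SD, n = 3 each; edgeR adjusted p = 7.22e-06). Xbp1, a factor of the unfolded protein response, was the other lower one, with 892 CPM in Spt5-depleted cells and 1453 CPM in WT. The lower sum of plasma cell markers in Spt5-depleted libraries lay mainly in these 2 genes, which belong to the ER programme themselves. Sdc1 and Irf4 were higher (log2 fold changes 0.64 and 0.37), and Prdm1, the regulator of plasma cell differentiation, did not pass, with 81.0 CPM in Spt5-depleted cells and 78.5 CPM in WT (edgeR adjusted p = 0.773). In these bulk libraries fewer secretory cells and less ER mRNA in each cell cannot be told apart. Macrophage and monocyte markers, of which 5 of 7 tested were higher and 0 lower, summed to 29.3 to 63.9 CPM in Spt5-depleted libraries and to 24.0 to 32.8 CPM in WT, and 1 of the 8 in the table was at 0 in a library. The 8 T cell markers summed to 19.2 to 41.1 CPM in Spt5-depleted libraries and to 45.1 to 46.3 CPM in WT. The part of these cells in the members' values was not tested.

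A list of 18 genes outside the set held mostly factors and feedback genes of the unfolded protein response. Of these 10 were lower, 2 higher and 6 did not pass, with a median log2 fold change of -0.48. These shares were 55.6% lower and 11.1% higher, against 30.6% and 31.8% of all tested genes. Xbp1, which encodes the factor activated by IRE1, had 956, 831 and 889 CPM in Spt5-depleted libraries and 1376, 1668 and 1315 CPM in WT (log2 fold change -0.70 ± 0.10 SE, edgeR adjusted p = 3.28e-05). The counts do not separate spliced from unspliced Xbp1 mRNA. Atf4, the factor translated when PERK and related kinases are active, had 219.8, 214 and 252 CPM in Spt5-depleted libraries and 646, 795 and 752 CPM in WT (log2 fold change -1.68 ± 0.10 SE, edgeR adjusted p = 5.53e-09). Ddit3, its target CHOP, averaged 25.9 ± 0.307 CPM in Spt5-depleted cells and 38.8 ± 6.53 CPM in WT (SD, n = 3 each; log2 fold change -0.59, edgeR adjusted p = 0.000496). The groups were apart for Xbp1, Atf4 and Ddit3. Trib3, a pseudokinase induced by ATF4 and CHOP, stood at -4.49, while Atf5 and the J protein gene Dnajc1 rose (log2 fold changes 1.35 and 0.42).

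Other genes of the same compartment were mixed. Of 28 other folding and protein-modifying genes tested 8 were lower and 5 higher (median log2 fold change -0.06). Cnpy3 and Erp29 stood at -0.92 and -0.56. Sumf1, not itself a folding enzyme, and Txndc12 stood at 1.06 and 0.65. Of 34 genes of N-glycosylation 13 were lower, with the smallest p-values for Rpn1, an oligosaccharyltransferase subunit (-0.78), and Alg12, a mannosyltransferase (-1.02), and 8 were higher, with the smallest p-values for Alg11 (0.66) and Dpm3 (0.73). The median of this list was -0.09. Of 28 other ERAD factors 6 were lower, with Vcp, the ATPase that pulls substrates out, at -1.01 and Ubxn8 at -1.23, and 8 were higher, with Tmub1 at 1.27 and Rnf5 at 0.62 (median 0.04). The counts of lower genes in the folding and other ERAD lists, 28.6% and 21.4%, lay at or under the 30.6% of all genes. Their higher genes made up 17.9% and 28.6%, against 31.8% of all genes. The N-glycosylation list had 38.2% lower and 23.5% higher, beside the same shares of all genes.

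The other targeting and vesicle genes were mixed as well. Of 26 other genes of targeting, signal peptidase and membrane insertion 8 were lower, among them Srp68 (-0.66) and Get4 (-0.67), and 9 higher, among them Srp14 (0.65) and Bag6 (0.57), with a median log2 fold change of 0.13. The shares, 30.8% lower and 34.6% higher, were near those of all genes, 30.6% and 31.8%. Of 32 other COPII and exit-site genes 9 were lower, with Ctage5 at -0.86 and Preb, the exchange factor for Sar1, at -0.87, and 11 higher, with Trappc1 at 0.92 and Gosr2 at 0.56 (median 0.14). These shares, 28.1% lower and 34.4% higher, were near those of all genes too. COPI genes and retrieval receptors, which bring escaped ER proteins back, were lower in 15 of 25 cases and higher in 6 (median -0.31), with Arfgap3 at -1.11 and Scfd1 at -0.94 against Arf4 at 0.71 and Copz1 at 0.37. This was 60% lower and 24% higher, beside 30.6% and 31.8% of all genes.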

How the data were processed

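The authors deposited whole read counts per gene, raw and not normalised, for 3 Spt5-depleted and 3 WT RNA-seq libraries. Another 18 samples of other assays were not analysed here. Per the labels' protocols, poly(A) RNA was made into libraries with a SENSE mRNA-seq kit. The submitters' processing notes name build mm9, DESeq2 1.10.1 and TopHat, and also featureCounts 1.5.0-p1, Bowtie2 2.1.0 and cutadapt 1.10. No annotation, strand setting or rule for multiply mapped reads was found. The authors' deposited log2 fold changes and adjusted p-values were not used. Pdia4, Pdia6, Ppib, Txndc11, Srpr, Sec24c, Spcs1, Syvn1, Srp54b, Ddit3, Atf5, Dnajc1, Rpn1, Ubxn8, Preb, Csf1r and Xist have IMP_OVL after their names in the deposited table, a tag that nothing explains. If it stands for overlapping genes, their counts may include a neighbour's reads. Srp54a has a different tag, IMP_DUP_1, which is not explained either. The members and all lists were chosen with earlier results of these data known.

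The count test was edgeR 4.0.16 in R 4.3.3, with filterByExpr, TMM factors and a robust, two-sided quasi-likelihood F test, adjusted by Benjamini-Hochberg over 12024 genes at a threshold of 0.05. The smallest row total in the table was 10. TMM factors were 1.04, 1.06 and 1.08 for Spt5-depleted and 0.949, 0.943 and 0.947 for WT libraries, and a change shared by all mRNAs would not be seen after this scaling. CPM values are not per length and are not compared between genes. Each SE was taken from the log2 fold change and its F. Pairs of WT libraries had a chi-square per degree of freedom of 26.4 to 31.2. Pairs of Spt5-depleted libraries had 6.13 to 10.2, so the WT libraries differed more among themselves. All pairs were above sampling noise. The fit was tested on simulated data. Alternatives used DESeq2 1.42.0 and limma 3.58.1. Values in every library are given for the sensors, for up to 4 higher and 4 lower members of each other role by smallest p, and for 8 partner pairs, plus a few further members. Other lists show their 2 smallest p-values in each direction, and Sil1, Tmx1, Tmx3, Pdia5 and Erp44 are given besides.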

Additional observations from a re-analysis of the deposited data

How the results depend on the processing

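Of 49 named genes that passed (46 members, Xbp1, Atf4 and Ddit3), 39 kept direction and call under every alternative run other than the 2-fold minimum, and 0 reversed. The 10 others were Atf6, Atf6b, Ero1lb, Dnajc10, Ppib, Txndc11, Derl1, Spcs2, Sec24c and Sar1b, whose values are given above. DESeq2 size factors, upper-quartile factors, limma-voom and both filters on low counts left 7 members higher and 39 lower, and DESeq2's Wald test gave 7 and 40. With library totals alone 11 members were higher and 33 lower, 3 ERAD genes were higher, and 64.8% of all calls were higher. At an adjusted p under 0.01 in edgeR, 3 members were higher and 36 lower, with 0 sensors, 1 chaperone or folding gene and 0 COPII genes higher. With a minimum of 2-fold, 1187 of all genes were higher and 917 lower, and 0 members were higher and 10 lower. These were 7 chaperones and folding enzymes, 2 ERAD genes and 1 COPII gene, with 0 targeting genes in either direction.

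Leaving out 1 library at a time gave 4 to 7 higher and 36 to 43 lower members, 1 to 2 higher and 0 to 1 lower sensors, 1 to 2 higher chaperones, 0 to 1 higher and 4 to 6 lower ERAD genes, and 0 to 1 higher COPII genes. Without WT replicate 3, 5 members were higher and 43 lower. The log2 difference of the Sec24d to Sec24c ratio ran between -1.83 and -1.40 in these repeats, that of Sel1l to Syvn1 between -0.72 and -0.55, and that of Derl1 to Derl2 between -0.48 and -0.27. Replicate numbers did not pair the libraries: deviations of same-numbered libraries correlated at 0.034, -0.051 and -0.032, and the highest correlation, 0.121, joined WT 2 to Spt5-depleted 3. With the number as a replicate block, 7 members were higher and 38 lower, Spcs2 being the call lost (edgeR adjusted p = 0.0514). Genes at a few counts, such as Srp54a, could not be tested at this depth.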
